A study of Mus musculus with 90 samples.

Results

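Myelin is the lipid-rich sheath that lets axons conduct quickly. Oligodendrocytes build it in the central nervous system and Schwann cells build it in peripheral nerves. Some of its genes are used by both cell types, whereas others are known from only one of them. The genes followed here in the adult female mouse were Mbp, Mog, Mag, Mobp, Cnp, Opalin, Pmp22 and Prx. They were taken from the table by their Entrez gene identifiers and are 8 of its 20414 genes. Mbp and Mag belong to both kinds of myelin, Mog, Mobp and Opalin to oligodendrocytes, and Prx to Schwann cells. Cnp is abundant in both myelinating cells but is also made elsewhere, and Pmp22 is a peripheral myelin protein that many other cells make too.

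The libraries came from female mice, C57BL/6 and aged 10 weeks by the sample labels, C57BL/6J and aged 8 weeks by the methods of the study. Mice were assigned to estrus or diestrus from vaginal secretions stained with methylene blue and checked daily, and no mouse carried a transgene or received a treatment. The study also measured estrogen and progesterone in serum of mice as a help in telling the phases. There were 15 tissues, namely cerebrum, hypothalamus, aorta, vein, brown adipose tissue (BAT), white adipose tissue (WAT), heart, kidney, liver, skeletal muscle, stomach, duodenum, ovary, uterus and spleen. Each tissue had 3 estrus and 3 diestrus libraries, 90 in all. The study took 3 mice per phase as biological replicates and dissected the 15 tissues from them. The tissues were sampled whole and not sorted, so a lower value from fewer cells of a type and one from less RNA per cell cannot be told apart. Which vein, muscle or stretch of cerebrum was dissected is not given in the sources used here. Levels are FPKM, fragment numbers scaled to transcript length and library size, so that they can be compared between genes.

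Depth, approximated from the steps between low values, was 8.81M to 18.3M reads in 89 libraries. In the remaining one, BAT estrus replicate 3, it was about 0.0782M, and 12048 genes were listed at 0 there against 2404 to 4820 in the others. The brain labels were checked against marker genes. Cortical neuron genes were all lower in hypothalamus (7 of 7 called), while 11 of 12 hypothalamus genes were higher there and Npy was lower. Several libraries outside brain also carried markers of another tissue, and these are given beside the results they touch. Some markers varied widely within brain as well, with Pomc at 150 ± 275 FPKM in hypothalamus (SD, n = 6) and Pmch at 3.72 ± 6.42 in cerebrum. In cerebrum, 5 of the 6 hypothalamus genes tested there were higher in estrus than in diestrus (median log2 fold change 1.14). For cortical neuron genes it was 0 of 7 (median -0.35), and 0 of either list were called. The part of dissection in the myelin values was not tested.

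The region upstream of the central myelin genes is shown because its letters differ among genes that moved together in brain. SOX10 is a transcription factor of both myelinating cell types, MYRF one of oligodendrocytes and EGR2 one of Schwann cells. Each run below is the 250 bases before an annotated start in RefSeq (GRCm38.p6), 5′ to 3′ on the strand of the gene, with SOX letters (CTTTGT or ACAAAG) and MYRF letters (CTGGCAC, or its reverse complement) in capitals. Both strands were searched, and the motifs share no overlapping match here. Mobp, plus strand, is chr9:120149492-120149741. Mag, minus strand, is chr7:30914864-30915113, 1 of 3 windows of that gene. Cnp, plus strand, is chr11:100574689-100574938. Opalin, minus strand, is chr19:41077114-41077363.
Mobp: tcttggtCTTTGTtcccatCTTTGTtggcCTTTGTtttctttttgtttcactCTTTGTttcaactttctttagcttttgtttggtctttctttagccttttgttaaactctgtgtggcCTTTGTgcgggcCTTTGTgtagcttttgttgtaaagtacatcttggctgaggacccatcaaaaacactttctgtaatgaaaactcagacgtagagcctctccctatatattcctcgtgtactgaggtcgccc
Mag: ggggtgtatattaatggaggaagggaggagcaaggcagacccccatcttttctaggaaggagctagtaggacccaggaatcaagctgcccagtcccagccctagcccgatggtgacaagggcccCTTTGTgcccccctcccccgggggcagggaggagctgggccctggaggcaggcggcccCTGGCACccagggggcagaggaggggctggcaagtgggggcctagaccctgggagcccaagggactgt
Cnp: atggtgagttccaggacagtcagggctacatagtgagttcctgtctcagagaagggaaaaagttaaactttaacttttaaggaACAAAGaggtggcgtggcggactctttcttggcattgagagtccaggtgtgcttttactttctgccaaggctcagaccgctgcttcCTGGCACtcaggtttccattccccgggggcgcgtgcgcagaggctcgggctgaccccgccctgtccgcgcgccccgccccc
Opalin: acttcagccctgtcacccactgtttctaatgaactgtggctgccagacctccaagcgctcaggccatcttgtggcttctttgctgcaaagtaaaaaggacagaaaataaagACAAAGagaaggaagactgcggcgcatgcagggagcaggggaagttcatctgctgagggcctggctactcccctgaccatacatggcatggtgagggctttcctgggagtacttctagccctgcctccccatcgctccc

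The Mobp window held 6 SOX matches, a number reached by 1 of the 32851 windows of this length in the table (0.00304%). At least 1 SOX match was present in 16.5% of all windows and at least 1 MYRF match in 4.19%. The Mag and Cnp windows printed above each held 1 SOX and 1 MYRF match, and the Opalin window 1 SOX match. No SOX, MYRF or EGR (GCGGGGGCG, found in 2.57% of all windows) match lay in the windows of Mog, Pmp22 or Prx. Matches describe the letters of these windows, not binding.

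The first question was where each gene was expressed. Mog, Mobp and Opalin were at or near 0 outside brain. Mog, a protein of the outer surface of central myelin, had 19.7 to 49.1 FPKM in the 12 brain libraries and at most 0.31 FPKM in the other 78, 29 of which listed it at 0. Mobp, a small basic protein of central myelin, had 62.3 to 178 FPKM in brain and was below 1 FPKM in 77 of the 78 others, with 1.01 FPKM in uterus estrus replicate 3. Opalin, an oligodendrocyte membrane protein, had 10.7 to 23.5 FPKM in brain and at most 0.57 FPKM elsewhere, with 65 libraries at 0. For these 3 genes no library outside brain reached the lowest brain library. Zeros in the shallow BAT library say little.

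**Figure D1:**
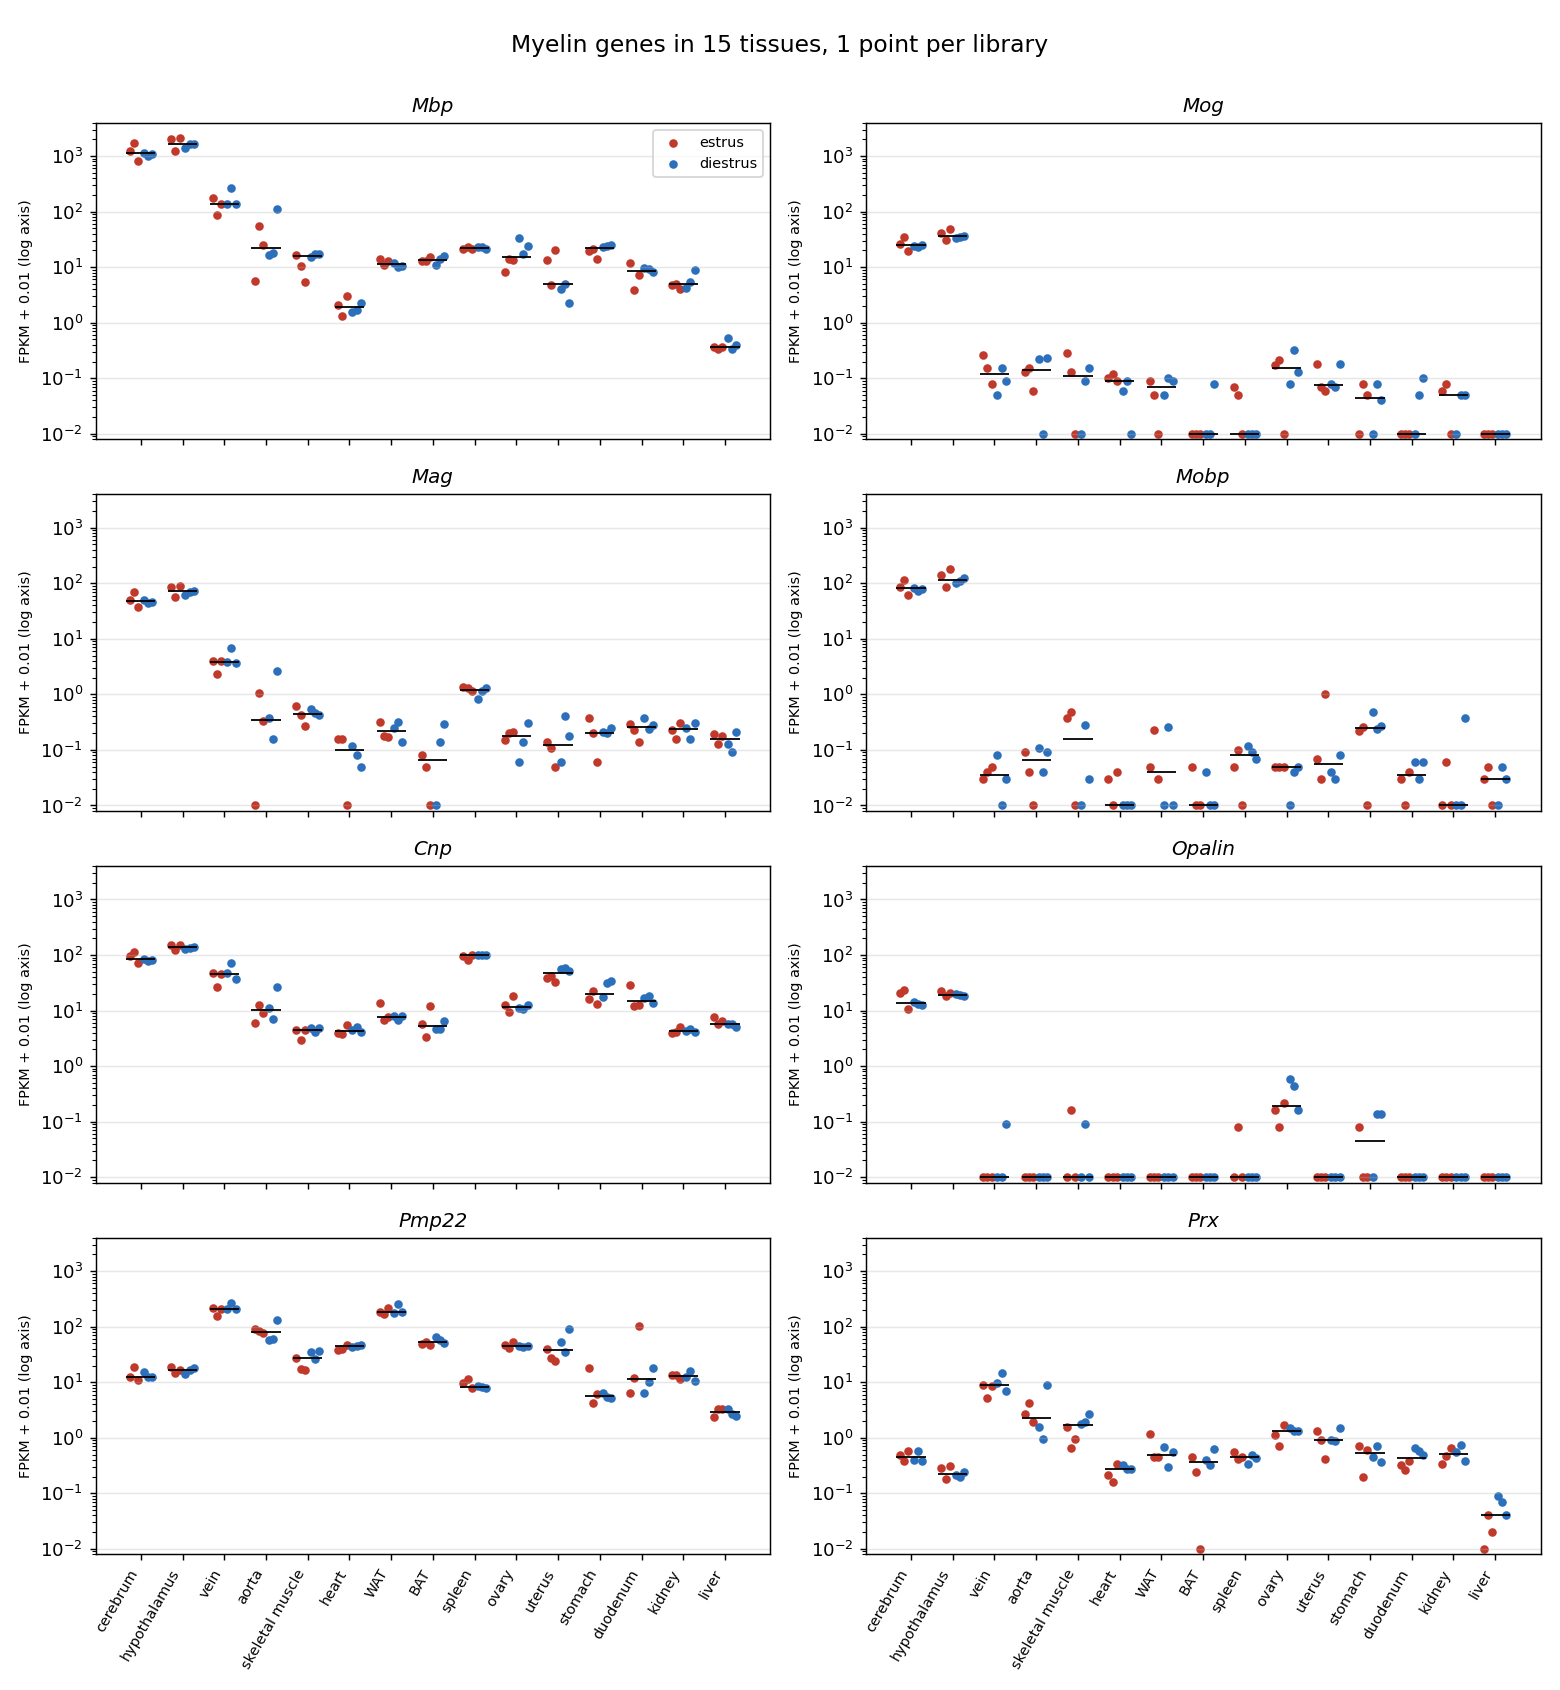
Levels of the 8 myelin genes in 15 tissues, as FPKM + 0.01 on a log axis, with a point per library (estrus and diestrus coloured) and a line at the median of 6 libraries. Mog, Mobp and Opalin stand far above 1 FPKM in cerebrum and hypothalamus alone, whereas Pmp22 is highest in vein and WAT and Prx in vein.

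Mbp and Mag were highest in brain with a smaller peak in vein. Mbp, the main cytoplasmic protein that compacts myelin, averaged 1680 ± 344 FPKM in hypothalamus (SD, n = 6), 1159 ± 297 in cerebrum and 157 ± 62.7 in vein. It then averaged 38.9 FPKM in aorta, 22 in spleen and 21.2 in stomach, down to 5.39 in kidney, 1.99 in heart and 0.372 in liver. Of its 14 pairs of neighbours in this order, 4 differed, namely cerebrum and vein, vein and aorta, kidney and heart, and heart and liver (exact permutation test on log2(FPKM + 1), two-sided, adjusted p 0.0173 to 0.0323). From aorta down to kidney no neighbours differed beyond their spread. Mag, an adhesion protein on the side of the sheath that faces the axon, averaged 73.2 FPKM in hypothalamus, 49.2 in cerebrum, 4.11 in vein and 1.17 in spleen, and each of these steps passed the same test.

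Cnp was high in brain but not there alone, and Pmp22 did not follow the nervous system. Cnp, an enzyme of uncompacted myelin, averaged 138 ± 12.4 FPKM in hypothalamus, 96.8 in spleen, 87.3 ± 15.3 in cerebrum, 46.5 in uterus and 45.9 in vein. Hypothalamus exceeded spleen (adjusted p = 0.0173, exact permutation test), while spleen and cerebrum did not differ beyond their spread (adjusted p = 0.478). Pmp22 averaged 209 FPKM in vein, 199 in WAT, 83.5 in aorta and 53.8 in BAT, and hypothalamus (16.5) and cerebrum (13.8) took ranks 10 and 11 of 15. Vein and WAT did not differ (adjusted p = 1), and WAT exceeded aorta (adjusted p = 0.0173). In 58 of the 78 libraries outside brain, Pmp22 was above its lowest brain value, and Cnp was above its own in 7.

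Prx, a scaffold of the Schwann cell membrane around the myelin sheath, had the lowest peak of the 8, at 14.9 FPKM. It averaged 9.07 FPKM in vein, 3.35 in aorta, 1.59 in skeletal muscle, 1.27 in ovary and 0.983 in uterus. In brain it ranged from 0.17 to 0.57 FPKM. Vein and aorta did not pass the test (adjusted p = 0.0527), and neither did aorta and skeletal muscle. Over all 8 members, 22 of 112 neighbouring pairs differed. With 6 libraries against 6 there are 924 splits, so the smallest p is 0.002165 before adjustment over the 112 pairs.

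The pattern most like that of Mog was sought among 15226 genes that averaged 1 FPKM or more across all 90, as Pearson's r of log2(FPKM + 1). The nearest genes were Olig2 (r = 0.997), Slc39a12, Ermn, Slc32a1 and Hapln2. Olig2, Ermn and Hapln2 are known from the oligodendrocyte lineage, Slc32a1 is the vesicular transporter of inhibitory neurons, and Slc39a12 is a zinc transporter. Among the members, r with Mog was 0.997 for Mobp, 0.996 for Opalin, 0.957 for Mag, 0.839 for Mbp, 0.627 for Cnp, -0.17 for Pmp22 and -0.19 for Prx. The 90 points share 15 tissues, so these values describe the split of brain from the rest and are given with no test.

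For Prx the nearest genes over 90 libraries were Plekha4 (r = 0.874), Egfl8 (0.865), Fam178b (0.827), Col28a1 and C7 (0.791 each). Over the 78 libraries outside brain, among 14599 genes, they were Lgi4 (0.884), Fez1, Map1a (0.880 each), Plekha4 (0.876) and Fxyd7 (0.875). Lgi4 is a secreted Schwann cell protein and Map1a a microtubule protein of neurons. In the same 78 libraries, r with Prx was 0.763 for Mbp, 0.602 for Pmp22 and 0.342 for Cnp.

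The second comparison set hypothalamus against cerebrum. Myelin transcripts were moderately higher in hypothalamus. Of the 7 members tested, 6 were called higher and 0 lower, where 52.1% of the 13280 genes tested were called higher and 20.2% lower. Prx was under the filter of 1 FPKM and was not tested, with brain values near the floor at 0.17 to 0.57 FPKM. Its 6 hypothalamus values lay below its 6 cerebrum values, but the share of all genes that separate in this direction was not computed. The median log2 fold change of the 7 was 0.55, against 0.17 for all genes, and none reached 1, a size that 4.73% of all genes reached in this direction. A call by itself therefore set these genes little apart from the background.

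Cnp differed most. In cerebrum it had 94.2, 114 and 71.3 FPKM in the 3 estrus libraries and 83.9, 77.6 and 82.5 FPKM in the 3 diestrus libraries. In hypothalamus the values were 151, 122 and 153 in estrus and 127, 135 and 138 in diestrus. Every hypothalamus library was above every cerebrum library, as for 36.4% of all genes, and the log2 fold change was 0.66 (SE 0.096, adjusted p = 4.36e-05, limma with an intensity trend). It was larger than that of 89.1% of the genes tested.

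Mbp in cerebrum was at 1212, 1693 and 799 FPKM in the estrus libraries, against 1130, 1015 and 1104 in the diestrus ones. In hypothalamus it was at 2039, 1255 and 2126 FPKM in the estrus libraries, against 1399, 1628 and 1633 in the diestrus ones. The groups overlapped, because cerebrum estrus replicate 2 lay above 4 of the 6 hypothalamus libraries. The log2 fold change was 0.55 (SE 0.17, adjusted p = 0.0105). By the exact permutation test of Mbp alone the difference did not pass (adjusted p = 0.0898 over the 112 neighbouring pairs).

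Mog averaged 37.9 ± 6.63 FPKM in hypothalamus and 25.6 ± 5.27 in cerebrum (log2 fold change 0.55, SE 0.13, adjusted p = 0.0017). Mag averaged 73.2 ± 12.6 and 49.2 ± 10.6 FPKM (0.57, SE 0.14, adjusted p = 0.0023). Mobp averaged 124 ± 32.2 and 83.3 ± 18.6 FPKM (0.56, SE 0.17, adjusted p = 0.00959). By the exact permutation test of single genes, Mog and Mag passed (adjusted p = 0.0383 each) and Mobp did not (adjusted p = 0.0776). These 3 and Mbp had nearly the same ratio of mean FPKM, 1.45 to 1.49, though their levels spanned 1680 to 37.9 FPKM in hypothalamus.

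Opalin in cerebrum was at 20.8, 23.5 and 10.7 FPKM in the estrus libraries, against 14.1, 13.2 and 12.4 in the diestrus ones. In hypothalamus it was at 22.6, 18.3 and 20.6 FPKM in the estrus libraries, against 19.5, 18.7 and 18.04 in the diestrus ones. Cerebrum estrus replicates 1 and 2 lay within or above the hypothalamus range, and the call was marginal (log2 fold change 0.35, SE 0.15, adjusted p = 0.0497). It did not pass the exact permutation test (adjusted p = 0.283). Its limma adjusted p was at most 0.05 in 9 of 20 alternative analyses, in a range of 0.0002 to 0.131. Pmp22 did not pass, at 16.5 against 13.8 FPKM (0.26, SE 0.12, adjusted p = 0.0581).

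**Figure D2:**
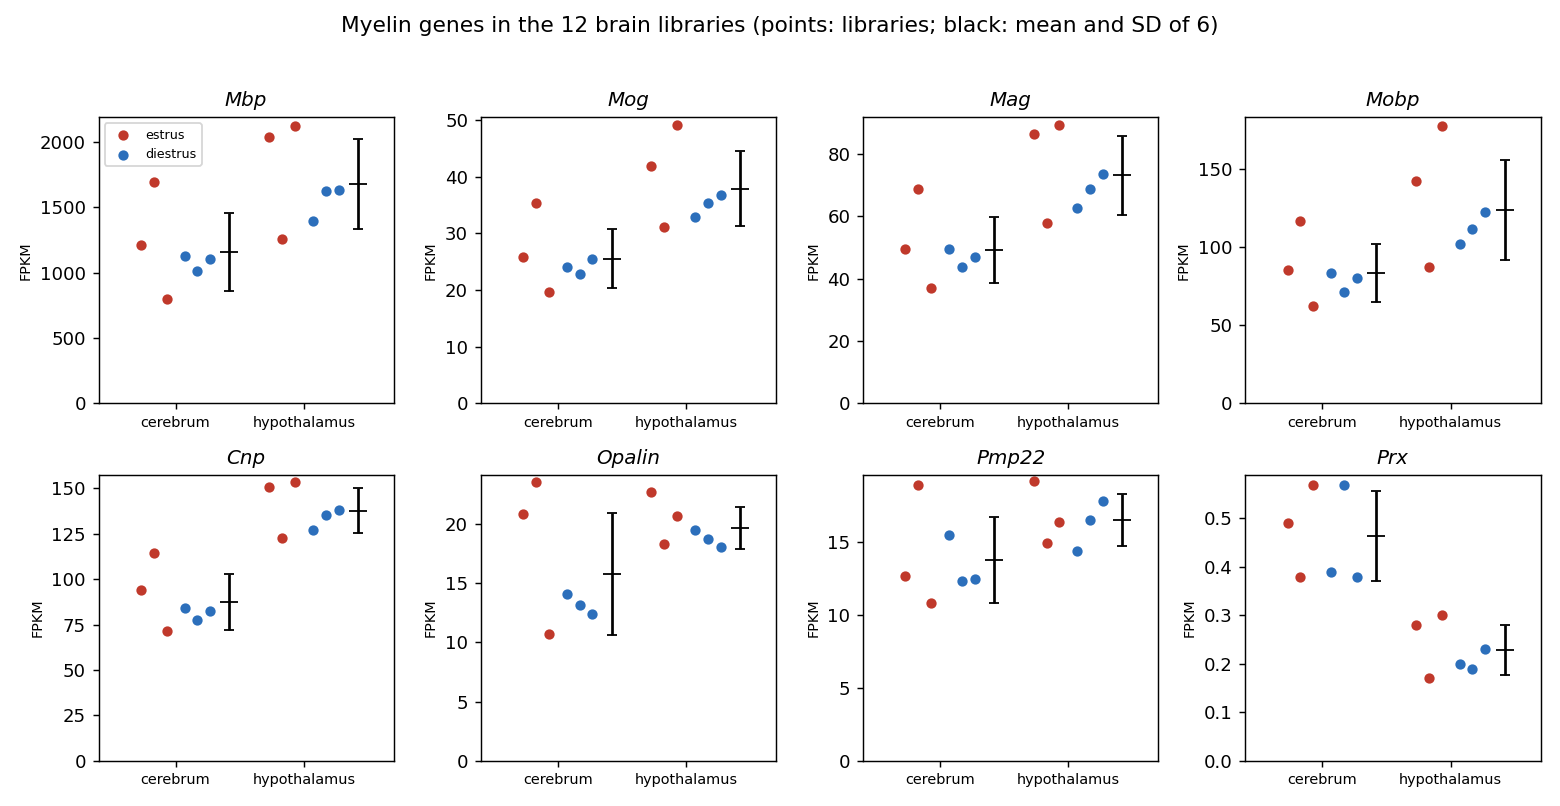
FPKM of the 8 members in the 6 cerebrum and 6 hypothalamus libraries, with a point per library coloured by phase and the mean and SD of 6 in black. The tissues do not overlap for Cnp, which is higher in hypothalamus, and for Prx, which is lower there. Prx is near the floor, at most 0.57 FPKM, and the share of all genes that separate likewise was not computed. Cerebrum estrus replicates 2 and 3 are the highest and lowest cerebrum libraries for Mbp, Mog, Mag, Mobp, Cnp and Opalin.

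The central members varied together from library to library. In cerebrum, estrus replicate 2 was the highest and estrus replicate 3 the lowest for Mbp, Mog (35.3 and 19.7 FPKM), Mag (68.7 and 37.0) and Mobp (117 and 62.3). In hypothalamus, estrus replicate 2 was the lowest for the same 4 genes, with 31.1 FPKM of Mog, 57.8 of Mag and 87.4 of Mobp. The summed choroid plexus genes ranged from 31.4 to 737 FPKM in cerebrum, with the highest sum in estrus replicate 3, and from 13.2 to 27.2 FPKM in hypothalamus. The part of this difference in the myelin values was not tested.

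The phase difference was not detectably different between cerebrum and hypothalamus. The interaction of phase and tissue called 0 members and 0% of all genes in limma (adjusted p = 0.9993 for every member tested), and 3.93% of all genes had an unadjusted p under 0.05.

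Other genes of the oligodendrocyte moved with the members. Of 28 further central myelin and oligodendrocyte genes, 21 were called higher in hypothalamus and 0 lower, with a median log2 fold change of 0.46. The largest was in Nkx6-2, a homeodomain factor of the lineage (1.87, adjusted p = 2.05e-08, limma), followed by Plekhb1 (0.85) and Hapln2 (0.84), a link protein at nodes. The smallest called were Gsn, which severs actin (0.30), Myrf itself (0.38) and Ugt8a, which makes the galactolipids of myelin (0.40). The most abundant of the list were Plekhb1 with 230 FPKM, Cryab with 105 and Trf, the iron carrier transferrin, with 103. Car2, carbonic anhydrase of oligodendrocytes, had a log2 fold change of 0.03 and was not called. Among 8 genes of oligodendrocyte precursors, 6 were higher and 0 lower, with a median of 0.34 over the 8. Those called ran from Ptprz1, a receptor phosphatase (0.17), to Lhfpl3 (1.19).

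Genes of the node and paranode, the gaps in the sheath and their borders, went both ways, with 5 of 11 higher, 5 lower and a median of 0.00. Cntnap2 (0.60), Cntn2 (0.53) and Epb41l3 (0.53), which hold potassium channels beside the node, were higher. The channel genes Kcna1 (-1.14) and Kcna2 (-0.47) and the adhesion gene Nrcam (-0.73) were lower. These genes are made by neurons as well as by glia.

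Genes of other brain cells did not all share the direction. Of 8 astrocyte genes 6 were higher, among them the glycolytic enzyme Aldoc (0.40), and 1 lower, the glutamate transporter Slc1a2 (-1.07), with a median of 0.33. Of 7 microglia genes 0 were higher and 5 lower, C1qb of the complement system among them (-0.23), with a median of -0.36. Of 10 pan-neuronal genes 5 were higher, such as Uchl1 (0.49), and 4 lower, such as the synaptic genes Snap25 (-0.97) and Syt1 (-1.12), with a median of -0.05. Of the genes of peripheral myelin and Schwann cells, 11 of 18 were tested, and 5 were higher, among them S100b (0.61), Gjb1 (0.55) and Pllp (0.38), which oligodendrocytes or astrocytes also make. Pou3f1 (-1.82), Egr2 (-1.76) and Drp2 (-0.37) were lower. Pou3f1 and Egr2 are also genes of cortical neurons.

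**Figure D3:**
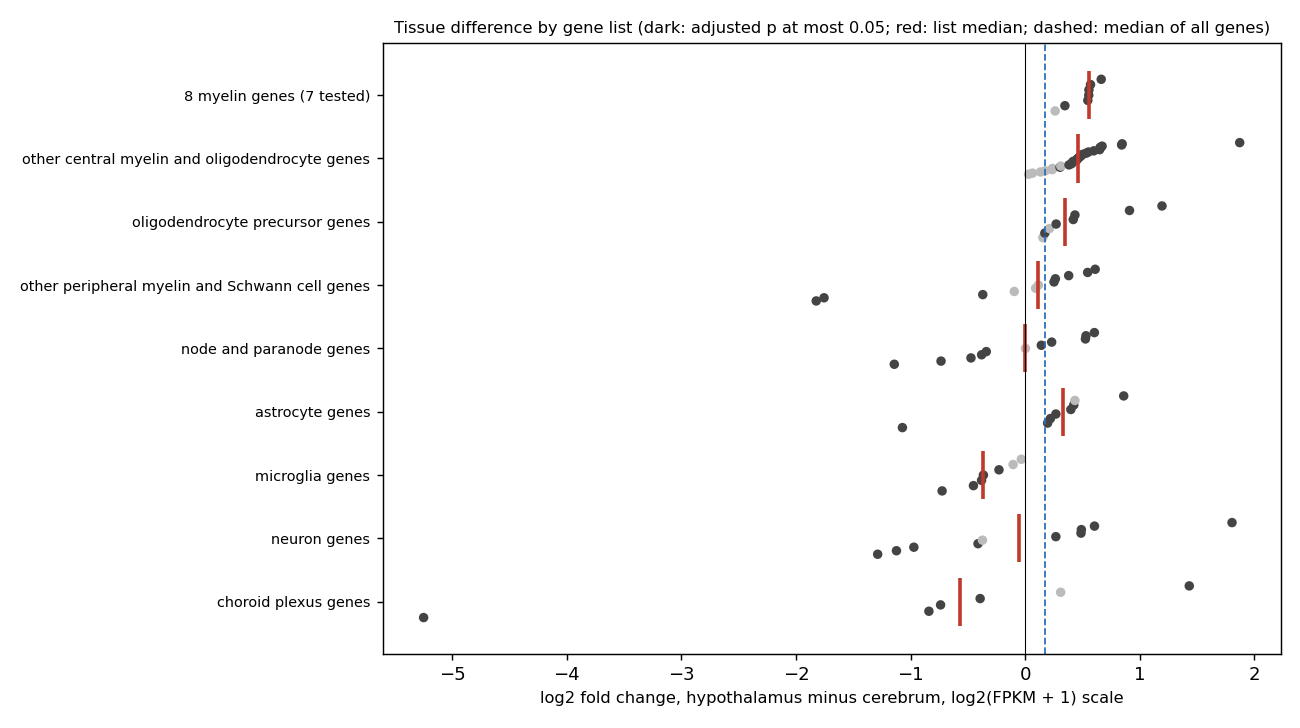
Log2 fold change of FPKM + 1, hypothalamus minus cerebrum, for each tested gene of the lists, with called genes dark, a red line at the median of the list and a dashed line at the median of all genes (0.17). The oligodendrocyte genes lie mostly to the right of the dashed line. The cortical neuron genes (median -3.91) and the hypothalamus genes (median 4.70) are not drawn.

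The third question was which tissues outside brain carried traces of peripheral myelin. Vein carried most. Prx in vein was at 8.99, 5.29 and 8.57 FPKM in the estrus libraries, against 9.58, 14.9 and 7.03 in the diestrus ones. Mbp in vein was at 176, 87.1 and 135 FPKM in the estrus libraries, against 135, 271 and 135 in the diestrus ones. Mag was at 4.02, 2.31 and 4.05 FPKM in the estrus libraries, against 3.77, 6.80 and 3.68 in the diestrus ones. Diestrus replicate 2 was the highest and estrus replicate 2 the lowest vein library for all 3 genes, and also for Pmp22 (262 and 155 FPKM) and Cnp (71.8 and 26.5 FPKM). Aorta diestrus replicate 3 was the only other library outside brain that reached the vein range for Mbp, Mag or Prx, and Mog, Mobp and Opalin stayed below 1 FPKM in all 6.

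Of the 5 members with a tissue mean of at least 1 FPKM outside brain, 4 were highest in vein, all but Cnp. Vein was the highest such tissue for 6.89% of 16759 genes with that mean. Among 18 other genes of peripheral myelin and Schwann cells, 5 were highest in vein and 16 had a vein mean of at least 1 FPKM. The most abundant of them in vein were Plekha4 (39.4 FPKM), Sox10, the lineage factor of the neural crest (34.0 FPKM), and S100b. Among 7 genes of non-myelinating Schwann cells and enteric glia, 6 were highest in vein, led by Ngfr, the low-affinity neurotrophin receptor (131 FPKM), L1cam (41.0) and Cadm4 (37.99). Among 11 node genes the number was 6.

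Neuronal transcripts were also abundant in vein. Of 10 neuron genes 9 were highest there outside brain, and their sum was 996 to 2142 FPKM in vein against 2013 to 3087 in the brain libraries. Uchl1 averaged 477 FPKM, Tubb3, the neuronal tubulin, 306, and Stmn2, a growth-associated protein, 238. Prph, an intermediate filament of peripheral neurons, averaged 231 FPKM in vein and 1.34 and 6.88 in cerebrum and hypothalamus. Rbfox3, a nuclear protein of most brain neurons, averaged 0.285 FPKM in vein. Vein libraries also held fat cell genes at a sum of 7434 to 13940 FPKM, and estrus replicate 3 held T cell genes at 128 and B cell genes at 173 FPKM, where the other 5 had at most 14.2 and 5.79. The part of attached nerve, ganglion or fat in the myelin values was not tested.

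Aorta had the next highest means of Mbp and Prx, with a wide spread, and did not differ from the tissue after it for either (adjusted p = 1 and 0.491, exact permutation test). For Mag it came after spleen. Mbp in aorta was at 5.66, 55.5 and 25.6 FPKM in the estrus libraries, against 16.7, 18.3 and 111 in the diestrus ones. Prx was at 2.65, 4.17 and 1.94 FPKM in the estrus libraries, against 1.57, 0.95 and 8.83 in the diestrus ones. Diestrus replicate 3 was the highest aorta library for all 5 members with expression outside brain and for 14 of 17 other peripheral genes. That library also had a muscle fibre sum of 402 FPKM, where the other aorta libraries had 50.8 to 187, with Sox10 at 14.8 and Ncmap at 4.78 FPKM. Estrus replicate 1, the lowest for Mbp, had smooth muscle genes at a sum of 15620 FPKM and fat cell genes at one of 2566, where the others had 1670 to 2476 and 12340 to 16830. The part of these tissues in the aorta values was not tested. Without diestrus replicate 3 the aorta mean fell from 38.9 to 24.4 FPKM for Mbp, from 0.763 to 0.38 for Mag and from 3.35 to 2.26 for Prx. Aorta then lay close to spleen for Mbp (22 FPKM).

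**Figure D4:**
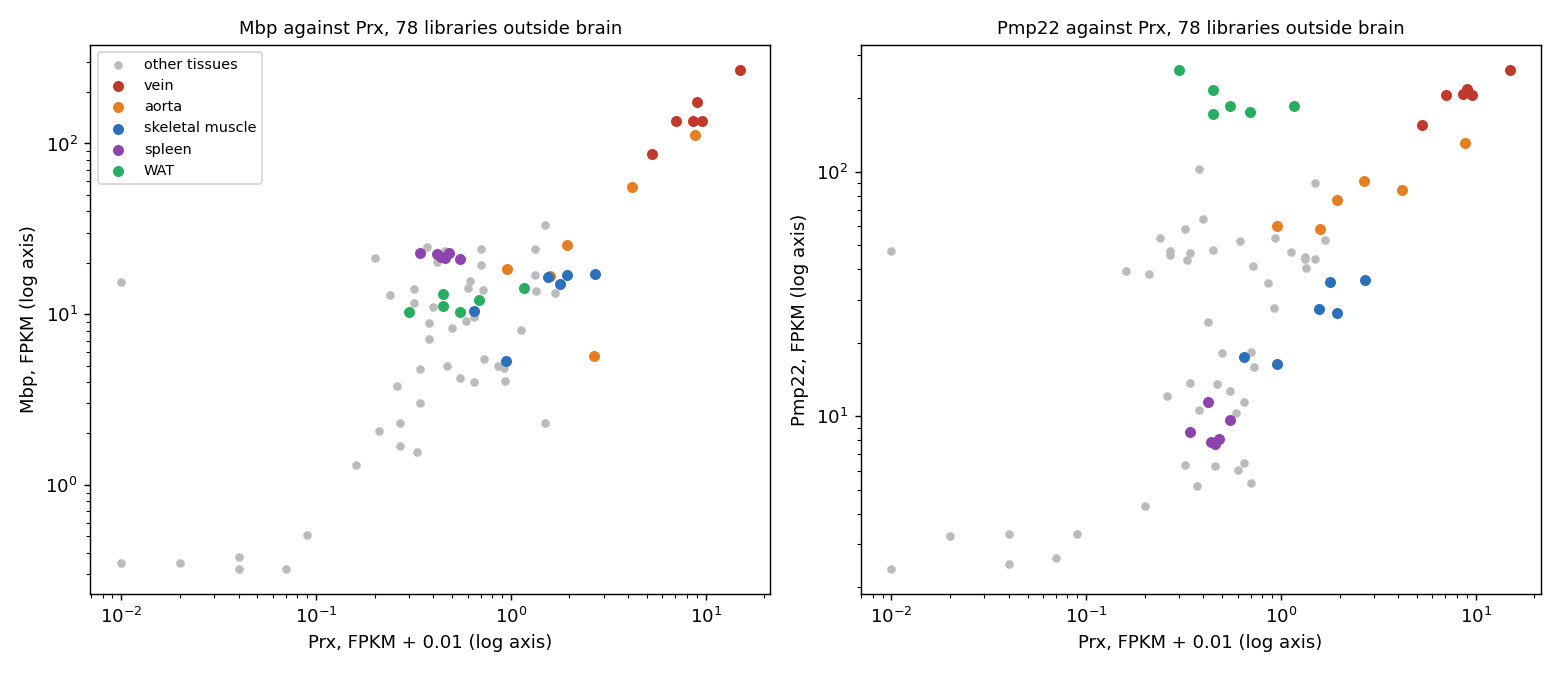
Mbp and Pmp22 against Prx in the 78 libraries outside brain, in FPKM on log axes, with points coloured by tissue. The 6 vein libraries stand at the upper right with 5.29 to 14.9 FPKM of Prx and 87.1 to 271 FPKM of Mbp, and aorta diestrus replicate 3 lies beside them.

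WAT had 199 FPKM of Pmp22 but 0.592 of Prx and 11.9 of Mbp, and spleen had 96.8 FPKM of Cnp and 22 of Mbp but 0.438 of Prx. High values of Cnp or Pmp22 were thus seen with little Prx. In spleen the same held for Mbp, and Mag averaged 1.17 FPKM there, its highest mean outside brain after vein. The wider list was not particular to nerve either, since Fxyd3 averaged 1526 FPKM in stomach, Gjb1 612 in liver, Pllp 129 in stomach, Sostdc1 93.9 in kidney and Erbb3 24.0 in duodenum.

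Within tissues the relation of Mbp to Prx could not be shown. Pearson's r over the 6 libraries of a tissue was positive in 8 of 13 tissues outside brain and negative in 5, and none passed after adjustment over the 13 (smallest adjusted p = 0.282, exact permutation of pairings, two-sided). In vein r was 0.94 (exact permutation p = 0.0222, unadjusted, n = 6) with a Spearman's rho of 0.66, and r was 0.28 without the 2 libraries farthest from the median of Prx, so the relation there rested on diestrus replicate 2 and estrus replicate 2. In skeletal muscle r was 0.73 (exact permutation p = 0.0903, unadjusted, n = 6) and rho 0.89 (p = 0.0333, adjusted p = 0.433), and r was 0.94 without 2 libraries.

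The last comparison set estrus against diestrus within each tissue, with 3 libraries against 3. No myelin gene that could be tested passed in any tissue. Of the 58 member and tissue pairs that averaged 1 FPKM or more, limma called 0 at the limits of the study (adjusted p up to 0.05, and 1 or more on the log2 scale), and 0 at the adjusted p alone, where 0.00108% and 0.00162% of 185469 gene and tissue pairs were called. The study used another test, DEGSeq, at these limits and reported far more called genes, so the counts are not like for like. At an unadjusted p under 0.05 there were 5 of 58, against 7.84% of all pairs. The smallest adjusted p of a member was 0.136. In 6 pairs the 3 estrus and the 3 diestrus values did not overlap, against 15% of all pairs. In brain every member tested was higher in estrus, by 0.04 (Pmp22) to 0.37 (Opalin) on the log2 scale in cerebrum. In hypothalamus it was by 0.05 (Pmp22) to 0.22 (Mobp). Of all genes tested, 7524 of 12951 were higher in estrus in cerebrum and 7206 of 13400 in hypothalamus. The central members varied together from library to library, so their shared direction is not a set of separate results.

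Prx in skeletal muscle was at 1.55, 0.64 and 0.94 FPKM in the estrus libraries, against 1.78, 1.94 and 2.69 in the diestrus ones (log2 fold change -0.63, SE 0.19, adjusted p = 0.136, limma). The values did not overlap, as for 21.9% of all genes of that tissue in this direction. Of 14 alternatives, 1 passed the adjusted p, without estrus replicate 1 (-0.80, adjusted p = 0.0287). Pmp22 had a log2 fold change of -0.67 (adjusted p = 0.139) and Mbp of -0.68 (adjusted p = 0.296), with overlapping values. Of 7 other peripheral myelin genes tested in skeletal muscle, 0 were called, and their median log2 fold change was -0.37, beside -0.08 for all genes. The 6 fibroblast genes there had a median of -0.62, and their part in the values was not tested.

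Mbp in ovary was at 8.08, 13.9 and 13.4 FPKM in the estrus libraries, against 33.3, 16.9 and 24.1 in the diestrus ones (log2 fold change -0.99, SE 0.28, adjusted p = 0.777), a separation shared by 5.58% of genes in that tissue and direction. Mbp in stomach was at 19.5, 21.3 and 14.2 FPKM in the estrus libraries, against 23.4, 24.0 and 24.9 in the diestrus ones (-0.40, adjusted p = 0.672), where 12% of genes separated likewise. In uterus Mbp was at 13.6, 4.83 and 20.3 FPKM in the estrus libraries, against 4.07, 4.98 and 2.29 in the diestrus ones. That log2 fold change of 1.40 was the largest of these, but the values overlapped (95% interval 0.20 to 2.60, adjusted p = 0.897). Marker lists also had medians away from 0 in these organs with 0 genes called, at 0.55 for fibroblast and 0.99 for fat cell genes in ovary. In uterus they were -0.77 for endothelial, -0.71 for fibroblast and 0.95 for fat cell genes. Their part in the Mbp and Cnp values was not tested.

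Cnp separated in 3 tissues with small differences. In uterus it was at 37.9, 42.3 and 32.6 FPKM in the estrus libraries, against 55.8, 59.1 and 51.3 in the diestrus ones (-0.55, adjusted p = 0.897), where 4.67% of genes separated likewise. In liver it was at 7.77, 5.79 and 6.50 FPKM in the estrus libraries, against 5.62, 5.63 and 5.07 in the diestrus ones (0.25, adjusted p = 0.811), with 4.48% of genes. In spleen it was at 96.8, 82.5 and 99.2 FPKM in the estrus libraries, against 99.8, 100.3 and 102 in the diestrus ones (-0.12, adjusted p = 0.930), with 5.7% of genes. The spleen library with 82.5 FPKM is the one in which pancreatic acinar genes summed to 4662 FPKM.

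**Figure D5:**
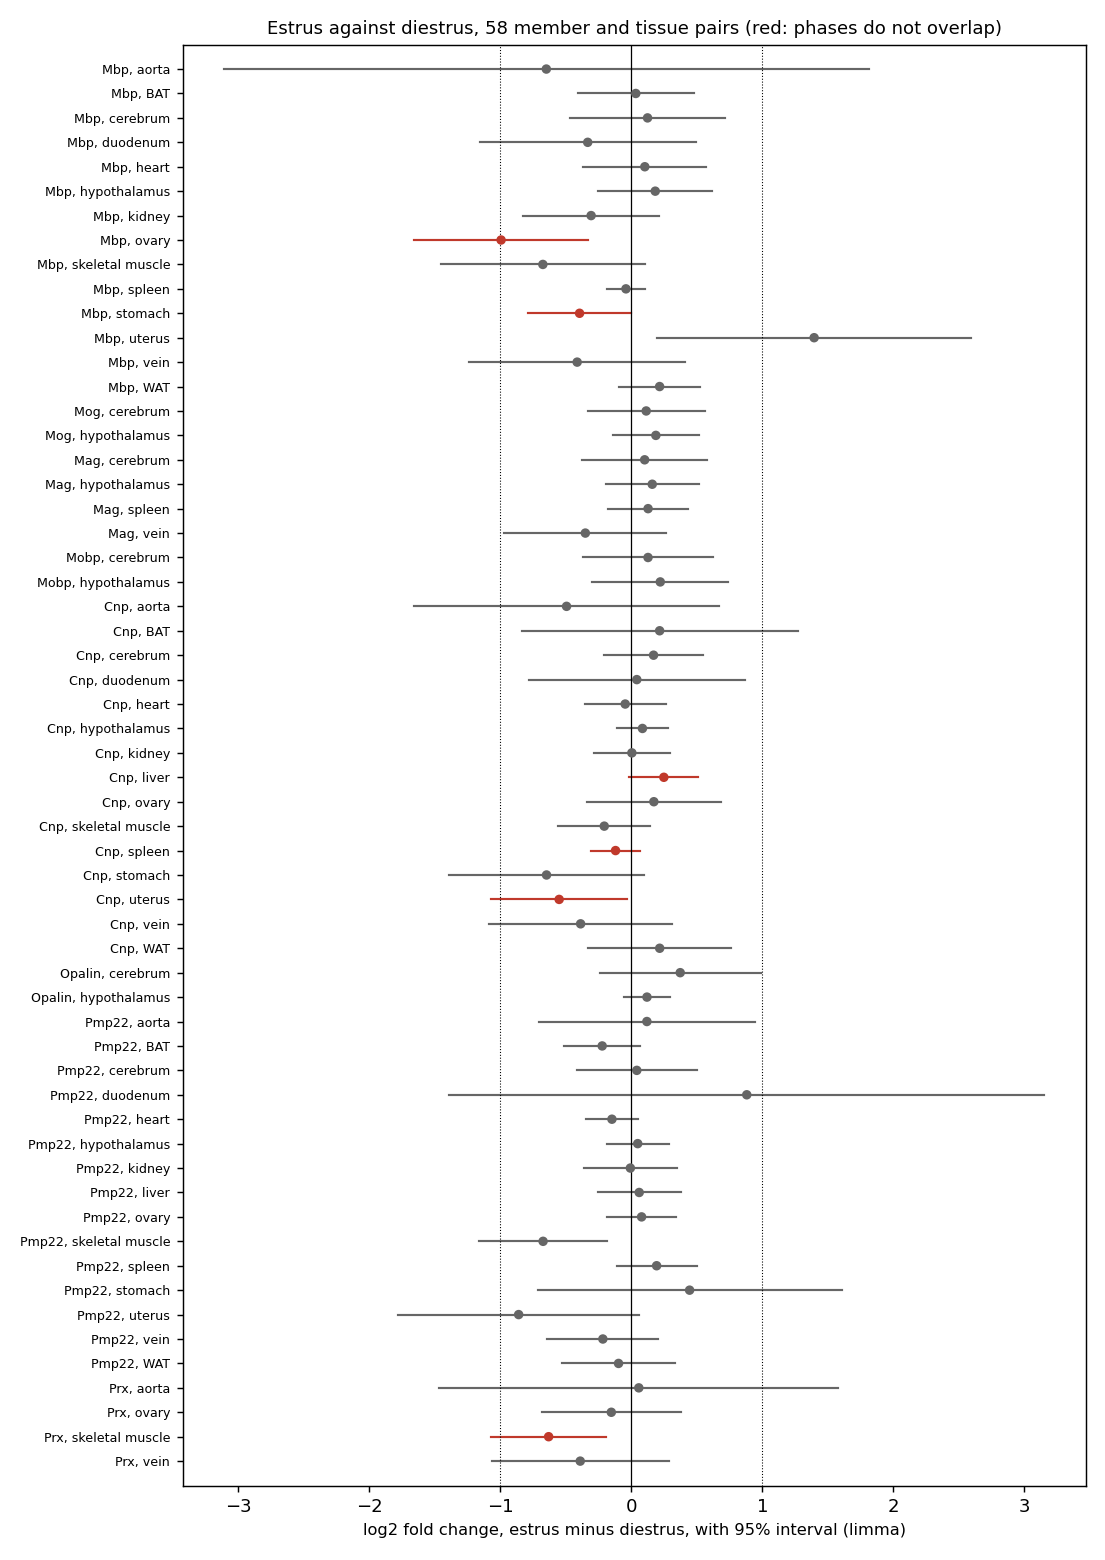
Log2 fold change of FPKM + 1, estrus minus diestrus, with 95% intervals for the 58 member and tissue pairs tested, red where the phases do not overlap and with dotted lines at -1 and 1. No pair passed the test, and Mbp in uterus (1.40) and Mbp in ovary (-0.99) lie far from 0 with wide intervals.

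The reach of these tests was judged on simulated data, for genes of at least 5 FPKM only. Recovery meant an adjusted p of at most 0.05 and the right direction, without the log2 limit of 1 that phase calls also needed. A log2 fold change of 1 was recovered in 93% of such genes in skeletal muscle and in 64% in ovary, and one of 2 in 97% in both. Under the full rule for phase calls these shares can be no higher, and they were not computed. In brain, 89% of genes changed by 0.5 were recovered. Phase differences were simulated for skeletal muscle and ovary alone, in genes drawn at random, so these shares do not carry over to the members in other tissues. Some abundant members had large errors there, with an SE of 1.01 for Mbp in aorta and 0.95 for Pmp22 in duodenum. A phase difference that is small, or of a gene near 1 FPKM such as Prx, could thus have been missed with 3 libraries per phase. So could a large one of an abundant member whose libraries varied widely.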

How the data were processed

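RNA of 15 tissues was sequenced on a BGISEQ-500. Per the labels, the authors aligned reads with Bowtie2 2.2.5 to GRCm38.p5 and quantified genes with RSEM 1.2.8, and they deposited FPKM values, in 1 table of 20414 genes and 90 libraries. The methods of the study also name SOAPnuke for read filtering and DEGSeq for testing. DEGSeq needs counts, so limma 3.58.1 in R 4.3.3 replaced it here. RefSeq tables named 20265 genes.

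Genes that averaged 1 FPKM or more were tested as log2(FPKM + 1), with an intensity trend and Benjamini-Hochberg adjustment over all genes tested, with phase as a covariate in the brain comparison and 1 fit per tissue for phase. Fold changes on this scale understate those of low genes. Calls needed an adjusted p of at most 0.05 and, for phase, a log2 fold change of at least 1. Levels of neighbouring tissues were compared by exact permutation tests. Python 3.11.15, numpy 2.4.6, pandas 2.3.3 and scipy 1.17.1 were used.

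The members, lists and tests were chosen with earlier results of these data known. Lists were named by their 3 most abundant genes and, for 3 lists, the 3 largest and smallest called changes. The 5 genes most like Mog and Prx were named by r. Other named genes, the phase pairs named for not overlapping, 2 marker lists and the tests of Cnp between tissues were chosen after values were seen. For 3 listed genes, values are not reported here and enter no count. The study dissected its tissues from the same 3 mice per phase, but nothing ties a number to a mouse across tissues. Tests between tissues thus took their libraries as independent, and p-values cover the spread between libraries.

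Depth was estimated from whole-read steps of low FPKM values. The settings of that estimate, and its upper limit, were adjusted several times after its values were seen and with an earlier estimate known, and only 51.9% to 69.4% of values were whole within 0.2 reads, so depths are approximate and no count test was run. The limma procedure was tested on simulated data with normal noise, whose changed genes, 100 at each fold size, came only from genes averaging 5 FPKM or more. Promoter windows were taken from RefSeq GRCm38.p6, 12 windows for 7 members.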

Additional observations from a re-analysis of the deposited data

Results flagged for a closer look

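In 9 of 58 groups of 6 libraries, the highest or lowest value stood apart from the rest by more than Dixon's limit of 0.625 of the range. Chance flags about 1 in 20 groups of normally spread values, but FPKM were used here without logs. The share flagged over all genes was not computed, so an excess in the members cannot be told. Cnp had such a value 6 times. It had 26.1 FPKM in aorta diestrus replicate 3 (the others 6.05 to 12.4), 12.2 in BAT estrus replicate 3 (3.27 to 6.39), which is the shallow library, and 29.4 in duodenum estrus replicate 1 (12.2 to 18.1). It had 18.3 FPKM in ovary estrus replicate 3 (9.49 to 12.5), 82.5 in spleen estrus replicate 2 (96.8 to 102) and 13.6 in WAT estrus replicate 1 (6.79 to 8.0).

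Pmp22 had 103 FPKM in duodenum estrus replicate 3 (the others 6.35 to 18.2) and 18.3 in stomach estrus replicate 1 (4.29 to 6.28). Mbp had 8.86 FPKM in kidney diestrus replicate 3 (4.03 to 5.43).

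Markers of other tissues stood beside several of these values. Gastric epithelium genes summed to 52190 FPKM in duodenum estrus replicate 1 and to 0.41 to 25.8 in the other duodenum libraries, and pancreatic acinar genes to 4662 FPKM in spleen estrus replicate 2 against 3.74 to 17.0. In WAT estrus replicate 1 smooth muscle genes summed to 2589 FPKM, and in stomach estrus replicate 1 to 5230. Their part in the myelin values was not tested.

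The 3 estrus values of Cnp lay above the diestrus values in liver and below them in spleen and uterus. The log2 phase difference in spleen minus that in liver was -0.37 (SE 0.14, unadjusted p = 0.0222 and adjusted p = 0.883, limma), and in uterus minus liver it was -0.80 (SE 0.21, unadjusted p = 0.00306, adjusted p = 0.931). No gene passed after adjustment in either test (0%).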

How the results depend on the processing

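Over 5 comparisons, 52 of 59 alternatives left the count of calls within 1.5 times and 7 moved it. Over 15 single results, 208 of 231 kept their side of the threshold, 18 weakened, 5 strengthened and 0 reversed. In brain the count was 0 of 7 when a log2 fold change of 1 was also needed and otherwise 5 to 7, also with 1 library left out. Opalin lost its call in 11 of 20 alternatives, among them each removal of 1 library other than cerebrum estrus replicates 1 and 2 and hypothalamus estrus replicate 2, and scaling to a common upper quartile (0.27, adjusted p = 0.131). Mbp lost it in 1 fit of all 90 libraries (adjusted p = 0.177), and Pmp22 gained it in 5 of 20. The removal of cerebrum estrus replicates 2 and 3 (7 calls), which as the extremes of these genes narrows the spread by construction, and that of aorta diestrus replicate 3 were chosen after the data were seen.

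For the phases the count rose from 0 to 1 in 3 settings, namely in 1 fit of all 90 libraries (Mbp in uterus, 1.40, adjusted p = 0.0269), without estrus replicate 1 (Mbp in skeletal muscle, -1.03, adjusted p = 0.0404) and without 6 libraries that stand apart (Mbp in duodenum, -1.05, adjusted p = 0.00566). Leaving out replicates gave counts from 0 to 1. The removal of the 6, chosen after the data were seen, drops duodenum estrus replicate 3, picked on its Pmp22 value, and leaves 1 estrus library in duodenum. Once that call had been seen a removal of 5 that keeps this library was added, and it gave 0. Order calls fell from 22 to 0 without replicate 1, 2 or 3, which 4 against 4 libraries fixes and which says nothing of stability, and they were 15 after scaling.

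Nothing states that a number marks a mouse, and r of deviations between same-numbered cerebrum and hypothalamus libraries was over 0.1 in diestrus (0.128 to 0.221, other numbers -0.131 to -0.0316) but not in estrus (0.0188 to 0.0783, other numbers -0.0871 to 0.0203), so numbers were not taken as pairs. Of the 12 libraries 11 had their highest r with their own number, a hint from the data only. With the replicate block the brain count was 6 and the phase count 0. Scaling shifted the median of all genes by over 0.1 in BAT (-0.14) and duodenum (0.13).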
